A study of Mus musculus with 12 samples.

Results

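Messenger RNAs of fatty acid uptake, storage and beta-oxidation were followed in triceps brachii, the elbow extensor of the forelimb, of 12 mice. The genes were taken from a list of 48 symbols, and every row of the expression table with a listed symbol was kept. This gave 47 of the 10187 genes in the table. The symbol not among them, Dci, is a former name of Eci1, which is among the 47. The genes fall into 7 steps: uptake (6 genes), activation to coenzyme A (CoA) esters (4), the carnitine shuttle and its malonyl-CoA control (8), beta-oxidation (13), electron transfer (3), uncoupling and thioesterases (4) and the lipid droplet (9). A filter on the mean over the 12 mice (at least 10 normalized reads) was passed by 44 of the 47. Acsl5, Cpt1a and Ucp2 stayed under it and were not tested.

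The mice were male C57/BL6 animals that crossed genotype with activity, with 3 mice in each of 4 groups. Wild-type mice were inactive (IW) or active (AW), and myostatin-reduced mice were likewise inactive (IM) or active (AM). Myostatin-reduced mice carried a Mstn gene with a floxed exon 3. The deletion was induced by tamoxifen in the diet (0.025%, w/w), begun at 4 months of age and given over 6 weeks in total, and wild-type mice had the same diet. Active mice were moved at 6 months of age to single cages with a running wheel for 12 weeks, while inactive mice had no wheel. The promoter that drives Cre recombinase and whether wild-type mice carried it are not given in the sources used here. Each sample is 1 mouse, and each value is a normalized read count per gene that is not divided by gene length.

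Long-chain fatty acids reach muscle fibres from blood lipoproteins, cleaved by lipoprotein lipase at the capillary wall, and as free acids. They cross membranes with the help of CD36 and fatty acid transport proteins, travel bound to small binding proteins, and are linked to CoA before use. They are then either stored as triglyceride in lipid droplets or carried into mitochondria as carnitine esters. There each turn of beta-oxidation shortens the chain and hands electrons to the respiratory chain through the electron transfer flavoprotein. Oxidative fibres and trained muscle are known for a high content of this machinery.

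Estimated depth was 9023551 to 12184217 reads per library in the genes of the table, so that 3 reads, taken as the detection floor, stood for 0.231 to 0.316 normalized reads (counting error only). Mstn had 79.7 to 138 normalized reads in wild-type and 8.70 to 21.6 in myostatin-reduced mice. Summed values of 6 striated muscle markers (Acta1, Ckm, Des, Ttn, Neb and Mb) were 96930 to 99773 in IM mice and 79420 to 90339 in the other 9 libraries. Of these markers Mb, the oxygen-binding myoglobin known from oxidative fibres, was the 1 called, at 1.82 for activity (limma adjusted p = 0.0019) and -1.26 for genotype (adjusted p = 0.0206), and its values ran from 284 in an IM mouse to 4842 in an AW mouse. The libraries differed in slow-fibre content within groups. The summed value of 11 slow-fibre markers ran from 94.3 to 1370 in IW mice, from 151 to 1831 in AW mice, from 78.3 to 112 in IM mice and from 117 to 1343 in AM mice. In a bulk sample more cells of a type and more RNA per cell cannot be told apart.

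Active mice were first set against inactive mice over both genotypes, to ask which of these genes differed with activity. Active mice had both a wheel and a single cage, and the parts of these cannot be told apart. Most genes of uptake (4 of 6), beta-oxidation (12 of 13) and electron transfer (3 of 3) were over-expressed in active mice. The call was made in fewer of those of activation (1 of 3), the carnitine shuttle (2 of 7), uncoupling proteins and thioesterases (1 of 3) and lipid droplets (3 of 9). Of the 44 tested, 26 were called (limma adjusted p-value under 0.05 over all 7247 genes tested), and all 26 were higher in active mice. Among all genes tested 14.5% were called and 7.99% were called higher. The estimate was positive in 38 of the 44 and negative in 6, and its median was 0.39 on the log2 scale, against -0.02 over all genes tested. Among the 38, Acaca and Acot2 had inactive means of 9.44 and 9.49. They thus passed the filter only through the active mice. At an unadjusted p-value under 0.05 there were 33 of 44, and 30.2% of all genes tested. The largest called changes were those of Dgat2, Plin5, Fabp3, Acaa2, Lpl and Cd36. In 6 of the 44 genes (Fabp4, Acads, Acadvl, Etfa, Etfb and Acot13) every one of the 6 active mice was above every one of the 6 inactive mice. Over all genes tested the share with that pattern was 3.09%.

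**Figure D1:**
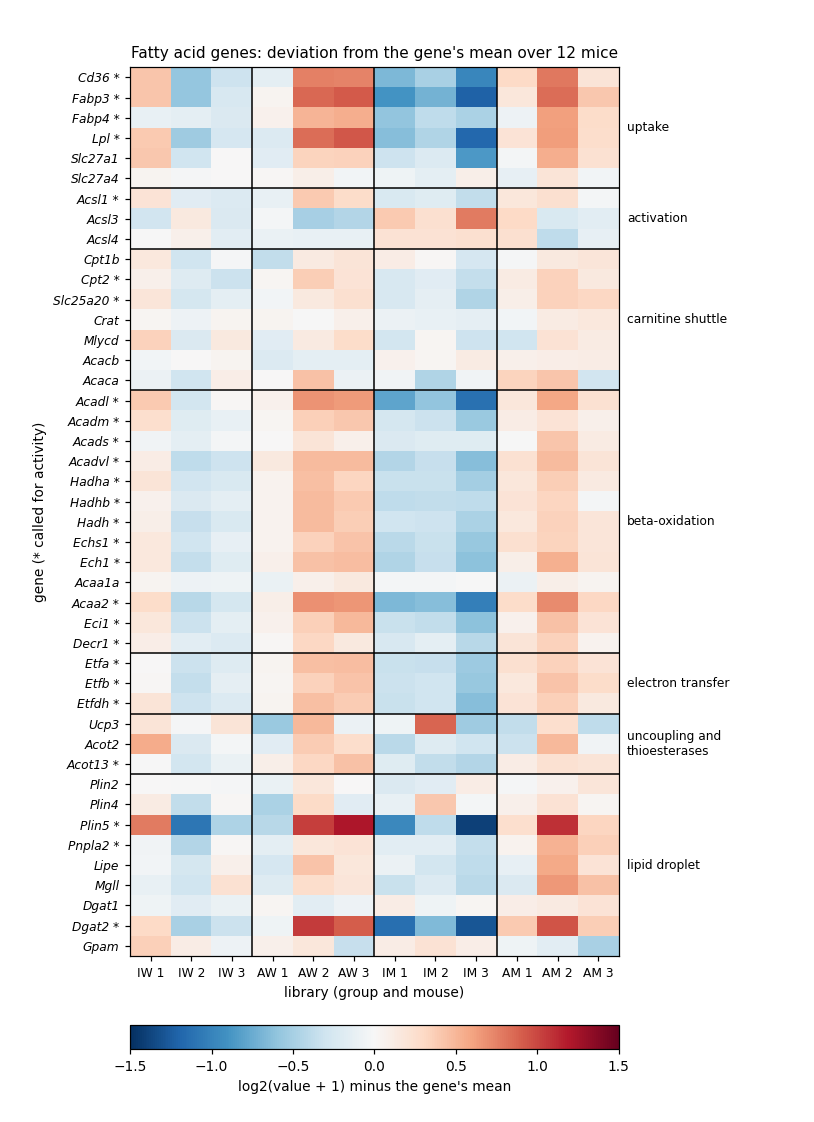
Deviation of each of the 44 tested fatty acid genes (rows, by step) from its own mean over the 12 mice, on the log2(value + 1) scale, in each library (columns); red is above and blue below the mean, and a star marks the 26 genes called for activity. The 3 IM libraries are blue in most rows, AW 2, AW 3 and AM 2 are red in most rows, and IW 1 and AW 1 sit near or across the levels of the other activity group.

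Because genes of several steps moved together, their promoters (250 bases before to 50 bases after the start of transcription, RefSeq, build GRCm38.p6) were read for letters bound by nuclear receptors. A window was given for 38 of the 47 genes, 45 windows in all. The estrogen-related receptor element TCAAGGTCA was in 0 of the 45 windows, and in 0.423% of all 32851 windows. A direct repeat of AGGTCA with 1 base between the copies (DR1) was likewise in 0 of 45 and in 0.0396% of all. The hexamer AGGTCA alone, on either strand, was in 11 of the 45 windows (24.4%), against 16.3% of all windows and 12.3% of the windows of genes tested. Among the genes called for activity it was in 6 of 22 windows (27.3%), 2 of them of Plin5. Counted by gene, it was in 5 of 20 called genes (25%) and in 10 of all 38 with a window (26.3%). Acacb, Cpt1a, Gpam, Plin2 and Ucp3, which were not called, held it as well. By gene the share was 14.9% among genes tested. These matches are descriptions of letters in the windows, and a window without a match says nothing of the factor. The upstream stretches below are those of the called genes that hold it, 1 each for a transporter, a droplet coat protein and 3 beta-oxidation enzymes, with the hexamer or its reverse complement TGACCT in capitals.
Cd36 (chr5:17836107-17836136, minus strand): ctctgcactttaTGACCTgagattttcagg
Acadm (chr3:153944875-153944893, minus strand, from the edge of the window): gTGACCTtcgggctccggt
Acadvl (chr11:70015498-70015527, minus strand): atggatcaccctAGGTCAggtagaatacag
Echs1 (chr7:140116487-140116516, minus strand): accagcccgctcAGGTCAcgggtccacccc
Plin5 (chr17:56117701-56117730, minus strand): agtcctagtctgAGGTCAgccatggtgact

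At the uptake step 4 of 6 genes were called, all higher in active mice. Cd36, the membrane glycoprotein that takes up long-chain fatty acids (chromosome 5, 17287508 to 17394777, build NCBIM37, mm9), was at 383, 191 and 231 normalized reads in IW mice 1, 2 and 3 and at 259, 487 and 483 in AW mice. It was at 179, 204 and 145 in the 3 IM mice and at 353, 496 and 328 in the 3 AM mice, and values are given in that order of mice throughout. All 3 AM mice were above all 3 IM mice, whereas IW mouse 1 was above AW mouse 1. Its activity change was 0.88 (SE 0.196, adjusted p = 0.0122). Fabp3, the heart and muscle fatty acid binding protein (chromosome 4, 129985839 to 129992707), was at 128, 63.6 and 81.0 (IW), 98.2, 174 and 182 (AW), 50.8, 58.2 and 40.5 (IM) and 107, 171 and 127 (AM). Here too only IW mouse 1 reached the range of the active mice. The Fabp3 mean was 1.67-fold higher in AW than in IW mice and 2.71-fold higher in AM than in IM mice, and its activity change was 1.08 (SE 0.193, adjusted p = 0.00429).

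Lpl, the lipoprotein lipase that frees fatty acids from circulating triglyceride (chromosome 8, 71404390 to 71431347), had the highest level per kilobase of transcript of the 47 genes over the 12 mice, 218 normalized reads per kilobase. That rank held in IW, AW and AM mice, whereas in IM mice Lpl (120.3) was below Crat (139), Etfb (137), Acadvl (136) and Fabp4 (129). Its values were 1080.2, 566 and 686 (IW), 712, 1467 and 1562 (AW), 525, 599.7 and 360.4 (IM) and 947, 1271 and 984 (AM). All AM mice were above all IM mice, and AW mouse 1 was within the IW range. The activity change of Lpl was 0.89 (SE 0.212, adjusted p = 0.0164). Fabp4, a binding protein known from adipocytes and capillary endothelium (chromosome 3, 10204347 to 10208576), was at 107, 103 and 98.7 (IW), 120.3, 164 and 167 (AW), 75.8, 87.9 and 82.1 (IM) and 109, 177 and 139 (AM). Active and inactive mice did not overlap, and the change was 0.64 (SE 0.11, adjusted p = 0.00331). The fatty acid transport proteins Slc27a1 and Slc27a4 were not called. Slc27a1 ran from 83.0 to 137 in active and from 50.9 to 124 in inactive mice, a change of 0.42 (SE 0.153, adjusted p = 0.085). Slc27a4 was between 11.7 and 15.0 in every library, with a change of 0.03 (95% interval -0.13 to 0.18).

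**Figure D2:**
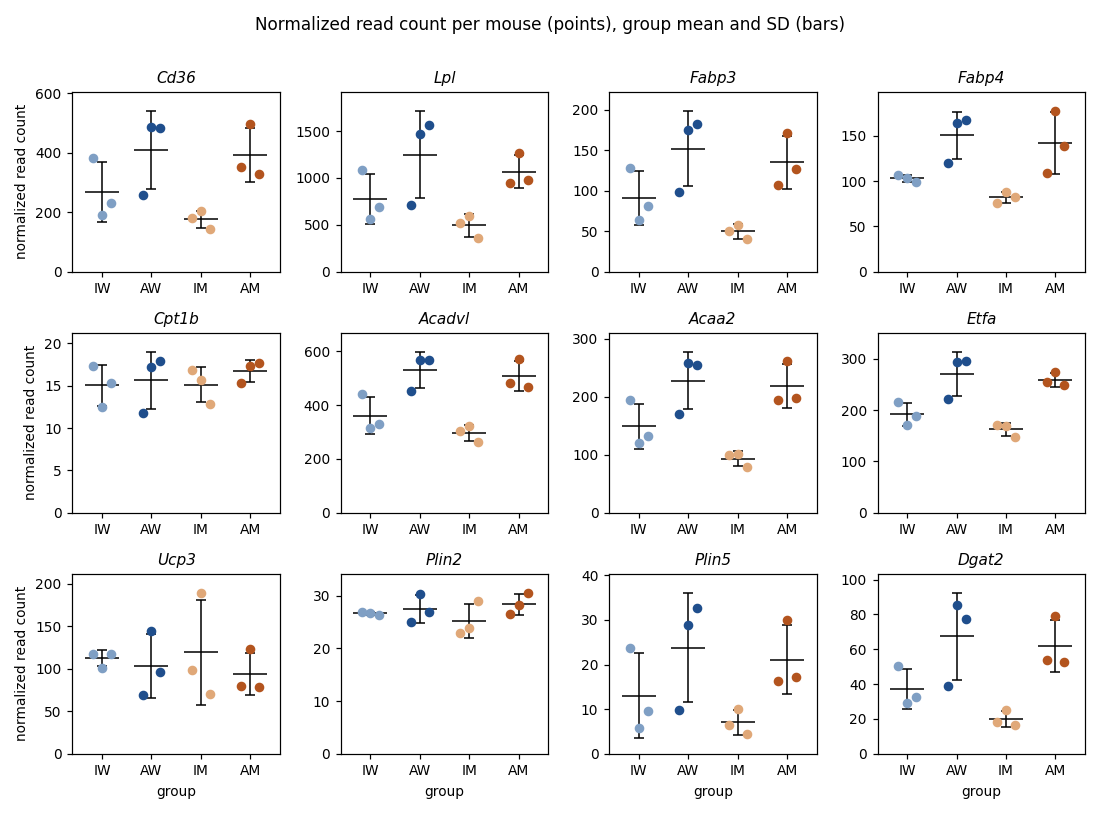
Normalized read count (vertical axis, from 0) of 12 fatty acid genes in each mouse (points; IW, AW, IM and AM from left to right) with the mean and SD of each group of 3. Cd36, Lpl, Fabp3, Fabp4, Acadvl, Acaa2, Etfa, Plin5 and Dgat2 show higher AM than IM mice without overlap, while Cpt1b, Ucp3 and Plin2 overlap between groups.

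At the activation step 1 of 3 tested genes was called. Acsl1, the main long-chain acyl-CoA synthetase of oxidative tissues (chromosome 8, 47556395 to 47621405), was at 466, 358 and 349 (IW), 375, 528 and 490.1 (AW), 346, 355 and 313 (IM) and 455, 475 and 397 (AM). It was called higher in active mice at 0.31 (SE 0.0955, adjusted p = 0.0446), a call that was lost in 9 of the 12 fits with 1 mouse left out. It was also lost in 7 of 12 other settings, the mouse number as a block among them. Acsl3 and Acsl4, synthetases known from lipid droplet formation and arachidonate use, had negative estimates that were not called. Acsl3 ran from 23.3 to 41.4 in active and 27.1 to 57.9 in inactive mice, a change of -0.35 (SE 0.128, adjusted p = 0.0864), and Acsl4 had a change of -0.20 (SE 0.0849, adjusted p = 0.141). Acsl5 was low, at 5.37 to 7.98 in the 12 libraries.

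Of the 7 tested genes of the carnitine shuttle and its malonyl-CoA control, 2 were called, and these were the inner-membrane members. Cpt2, the inner carnitine palmitoyltransferase (chromosome 4, 107576586 to 107596215), was at 89.3, 73.6 and 67.2 (IW), 85.8, 109 and 97.1 (AW), 71.2, 74.6 and 65.8 (IM) and 91.9, 108 and 93.1 (AM). IW mouse 1, at 89.3, was the inactive mouse that overlapped the active ones, and the change was 0.40 (SE 0.0799, adjusted p = 0.00712). Slc25a20, the carnitine-acylcarnitine carrier (chromosome 9, 108564429 to 108586972), was at 89.9, 66.0 and 71.3 (IW), 77.0, 87.8 and 93.6 (AW), 66.8, 72.1 and 57.6 (IM) and 84.2, 101 and 98.5 (AM). The AM and IM mice were apart while AW mouse 1 was within the IW range, and the change was 0.36 (SE 0.0868, adjusted p = 0.0179). Without AW mouse 3 the Slc25a20 call was lost (adjusted p = 0.0536).

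Cpt1b, the muscle form of the outer-membrane transferase and the entry enzyme of the shuttle (chromosome 15, 89246836 to 89256294), was at 17.3, 12.4 and 15.3 (IW), 11.8, 17.2 and 17.9 (AW), 16.8, 15.7 and 12.8 (IM) and 15.3, 17.3 and 17.6 (AM). The groups overlapped throughout, and the change was 0.09 with a 95% interval of -0.15 to 0.34. That interval reaches past the estimate for Acads (0.27) and ends below the estimates for the other 11 called beta-oxidation genes described further on. Cpt1b is counted low in this table, at 5.40 normalized reads per kilobase against 36.1 for Cpt2. A readthrough transcript that joins the neighbouring Chkb to Cpt1b spans the gene in RefSeq, and how reads shared by both were counted is not given in the sources used here. Cpt1a, the form known from liver, was at 8.36, 7.47 and 10.7 (IW), 5.02, 11.2 and 8.89 (AW), 6.01, 8.28 and 5.24 (IM) and 6.38, 10.4 and 6.44 (AM), with no group apart from the others.

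Crat, the carnitine acetyltransferase, was the most abundant gene of this step at 151 normalized reads per kilobase, and its change was 0.12 (SE 0.0476, adjusted p = 0.121). Mlycd, which degrades malonyl-CoA, had a change of 0.09 (SE 0.12, adjusted p = 0.622). Acacb and Acaca, the acetyl-CoA carboxylases that make malonyl-CoA, the inhibitor of the outer transferase, were not called for activity, at -0.07 (SE 0.0393, adjusted p = 0.227) and 0.28 (SE 0.142, adjusted p = 0.211).

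Beta-oxidation was the step with the most called genes, 12 of 13, all higher in active mice. Its median activity change was 0.52 on the log2 scale. Among the acyl-CoA dehydrogenases, which take the first step in order of chain length, the change was 0.67 (SE 0.0962, adjusted p = 0.00179) for very long-chain Acadvl and 0.79 (SE 0.14, adjusted p = 0.00396) for long-chain Acadl. It was 0.39 (SE 0.0886, adjusted p = 0.0127) for medium-chain Acadm and 0.27 (SE 0.0676, adjusted p = 0.0206) for short-chain Acads. The Acads call was lost in 2 of the 12 fits with 1 mouse left out. The difference between the forms was not tested. Acadvl (chromosome 11, 69823685 to 69828913) was at 440.1, 314 and 329 (IW), 453, 568 and 569 (AW), 302, 321 and 262 (IM) and 480.4, 570.5 and 468 (AM). No inactive mouse reached the lowest active mouse, and IW mouse 1 came nearest. In the mm9 annotation used here for positions, exons of Acadvl overlap Dvl2 on the other strand, whereas in RefSeq (GRCm38.p6) the 2 genes do not overlap. Whether strand was used in the counting is not given.

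Acadl (chromosome 1, 66877413 to 66909851) was at 358, 226 and 276 (IW), 286, 435 and 427 (AW), 157, 180.2 and 125 (IM) and 308, 409.6 and 320.1 (AM). The 3 IM mice were the lowest of the 12, below every IW mouse. Acadm was at 359, 266 and 278 (IW), 307, 386 and 398 (AW), 252, 240.1 and 205 (IM) and 325, 347 and 317 (AM), with IW mouse 1 the single inactive mouse above any active one. Acads was at 77.5, 72.2 and 78.7 (IW), 80.3, 92.1 and 84.5 (AW), 68.8, 70.4 and 70.5 (IM) and 79.6, 108 and 87.7 (AM), with the active and inactive mice apart.

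The 2 subunits of the mitochondrial trifunctional protein, which takes the next 3 reactions on long chains, differed in level per kilobase. Hadha was at 498, 359 and 372 (IW), 451, 596 and 548 (AW), 346, 347 and 306 (IM) and 490.1, 566 and 479 (AM). Hadhb, at 29.5 against 111 normalized reads per kilobase, was at 62.1, 50.6 and 53.5 (IW), 61.4, 82.5 and 78.1 (AW), 45.3, 45.5 and 45.4 (IM) and 68.5, 73.9 and 57.8 (AM). In both genes IW mouse 1 overlapped the active range, and the changes were 0.50 (SE 0.0922, adjusted p = 0.00474) and 0.47 (SE 0.0828, adjusted p = 0.0038).

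The enzymes of shorter chains also rose. Hadh, the short-chain hydroxyacyl-CoA dehydrogenase, was at 215, 160.1 and 174 (IW), 210.2, 282 and 263 (AW), 165, 164 and 146 (IM) and 227, 258 and 231 (AM), a change of 0.52 (SE 0.0858, adjusted p = 0.0028). Echs1, the short-chain enoyl-CoA hydratase, was at 134, 97.6 and 110.2 (IW), 124, 152 and 162 (AW), 90.0, 94.9 and 80.4 (IM) and 141, 151 and 136 (AM), a change of 0.52 (SE 0.084, adjusted p = 0.00253). In both genes the AM and IM mice were apart, and IW mouse 1 was above AW mouse 1. Acaa2, the mitochondrial thiolase, had the largest change of the step, from 149 ± 39.4 in IW to 227 ± 49.4 in AW mice and from 93.4 ± 13.4 in IM to 218 ± 38.3 in AM mice (mean ± SD, n = 3). Its single values were 193, 119.7 and 133 (IW), 170.3, 257 and 254 (AW), 100.1, 102 and 78.0 (IM) and 194, 262 and 198 (AM). IW mouse 1 was above AW mouse 1, and the change was 0.91 (SE 0.141, adjusted p = 0.00204). The auxiliary enzymes that unsaturated chains need were called as well, with 0.60 (SE 0.106, adjusted p = 0.00399) for the dienoyl-CoA isomerase Ech1, 0.54 (SE 0.102, adjusted p = 0.0055) for the enoyl-CoA isomerase Eci1 and 0.36 (SE 0.0769, adjusted p = 0.0102) for the dienoyl-CoA reductase Decr1. Ech1 was at 213, 149 and 169 (IW), 202, 260.4 and 264 (AW), 139.9, 151 and 125 (IM) and 203, 277 and 219 (AM). Eci1 was at 104, 73.2 and 82.7 (IW), 95.5, 118 and 129 (AW), 72.6, 70.8 and 59.3 (IM) and 95.7, 125 and 106 (AM). Decr1 was at 156, 130.1 and 126 (IW), 147, 181 and 162 (AW), 123, 131 and 109 (IM) and 167, 186 and 152 (AM). In all 3 the AM mice were above the IM mice, and IW mouse 1 was above AW mouse 1. The gene of the step that was not called, Acaa1a, encodes the thiolase of peroxisomes and not of mitochondria. It was between 27.3 and 32.6 in every library, a change of 0.06 (95% interval -0.06 to 0.18), which lies below the estimate of each of the other 12 genes of the step.

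All 3 genes of electron transfer were called. Etfa and Etfb, the subunits of the electron transfer flavoprotein that accepts electrons from the acyl-CoA dehydrogenases, were apart between active and inactive mice in all 12 libraries. Etfa (chromosome 9, 55302315 to 55360050) was at 215, 172 and 188 (IW), 221, 294 and 296 (AW), 170.3, 169.7 and 148 (IM) and 254, 274 and 249 (AM), a change of 0.58 (SE 0.0815, adjusted p = 0.00179). Etfb (chromosome 7, 50699478 to 50713170) was at 158, 122 and 142 (IW), 159.9, 199.8 and 211 (AW), 125, 127 and 105 (IM) and 174, 211 and 189.9 (AM), a change of 0.56 (SE 0.0875, adjusted p = 0.00225). The smallest gap was between IW mouse 1 and AW mouse 1 in both genes. Etfdh, the dehydrogenase that passes these electrons to ubiquinone, was at 199, 139 and 149.9 (IW), 179, 237 and 227 (AW), 138, 140.3 and 111 (IM) and 201, 223 and 192 (AM). IW mouse 1 was above AW mouse 1, and the change was 0.53 (SE 0.0998, adjusted p = 0.00506). The 3 estimates ran from 0.53 to 0.58 on the log2 scale, and the 2 flavoprotein subunits had like levels, 159 and 185 normalized reads per kilobase.

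Among uncoupling proteins and thioesterases 1 of 3 tested genes was called. Acot13, a thioesterase that cleaves long-chain acyl-CoA (chromosome 13, 24909817 to 24923386), was at 75.5, 62.3 and 70.5 (IW), 80.1, 94.3 and 103 (AW), 66.7, 58.3 and 55.3 (IM) and 81.8, 88.7 and 86.5 (AM). Active and inactive mice did not overlap, and the change was 0.46 (SE 0.0725, adjusted p = 0.00235). Ucp3, the uncoupling protein of muscle mitochondria (chromosome 7, 107621499 to 107634941), was at 118, 101 and 118 (IW), 69.6, 145 and 96.6 (AW), 98.5, 189 and 70.7 (IM) and 79.6, 123 and 78.8 (AM). Its highest value was in an IM mouse and its lowest in an AW mouse, and the SD within groups reached 61.9. The change was -0.22 with a 95% interval of -0.70 to 0.27, too wide to tell a fall from a small rise. Acot2, a mitochondrial thioesterase near the filter (7.27 to 15.1 in the 12 libraries), had a change of 0.19 (SE 0.163, adjusted p = 0.446). Acot2 has a near-identical neighbour, Acot1, so that its value is uncertain. Ucp2 was at 4.24 to 12.5.

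Lipid droplet genes split, with 3 of 9 called. Dgat2, which makes triglyceride from diacylglycerol (chromosome 7, 106302173 to 106331223), had the largest activity change of all 44 genes. It was at 50.4, 29.0 and 32.6 (IW), 39.1, 85.5 and 77.6 (AW), 18.1, 25.4 and 16.3 (IM) and 53.8, 79.3 and 52.9 (AM). The means were 1.81-fold higher in AW than in IW mice and 3.11-fold higher in AM than in IM mice. Each AM mouse was above each IM mouse while AW mouse 1 was below IW mouse 1, and the change was 1.19 (SE 0.202, adjusted p = 0.00312). Dgat1, an enzyme of the same reaction and unrelated sequence, stayed between 9.54 and 12.7, a change of 0.08 (SE 0.0676, adjusted p = 0.44).

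Plin5, the droplet coat protein of oxidative tissues (chromosome 17, 56251024 to 56257019), was at 23.8, 5.81 and 9.50 (IW), 9.87, 28.8 and 32.7 (AW), 6.43, 10.1 and 4.50 (IM) and 16.2, 30.0 and 17.1 (AM). IW mouse 1 was above 2 of the 3 AM mice, and AW mouse 1 was within the IW range. The SE was the largest of the 26 called genes. The change was 1.17 (SE 0.345, adjusted p = 0.0397), and the call was lost in 8 of the 12 fits with 1 mouse left out and, among other settings, with the mouse number as a block. Pnpla2, the lipase that starts the breakdown of stored triglyceride (chromosome 7, 148641097 to 148646642), was at 223, 171 and 234 (IW), 209, 261 and 267 (AW), 207, 207 and 180.1 (IM) and 239, 333 and 296 (AM). AM and IM mice were apart and AW and IW mice overlapped. Its change was 0.39 (SE 0.101, adjusted p = 0.0246), a call lost in 5 of those fits.

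The other droplet genes were not called. Plin2, the general droplet coat protein, was at 26.9, 26.7 and 26.4 (IW), 25.0, 30.3 and 27.0 (AW), 22.9, 23.8 and 28.9 (IM) and 26.5, 28.2 and 30.5 (AM). Its groups overlapped, with a change of 0.10 (95% interval -0.05 to 0.25), so an increase as large as that estimated for Plin5 or Dgat2 lies outside its interval. Plin4 had a change of -0.01 (95% interval -0.30 to 0.27). The downstream lipases had positive estimates, 0.33 (SE 0.132, adjusted p = 0.112) for Lipe and 0.37 (SE 0.14, adjusted p = 0.0942) for Mgll. Gpam, which takes the first step of glycerolipid synthesis in mitochondria, had a negative one, -0.27 (SE 0.103, adjusted p = 0.0967).

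**Figure D3:**
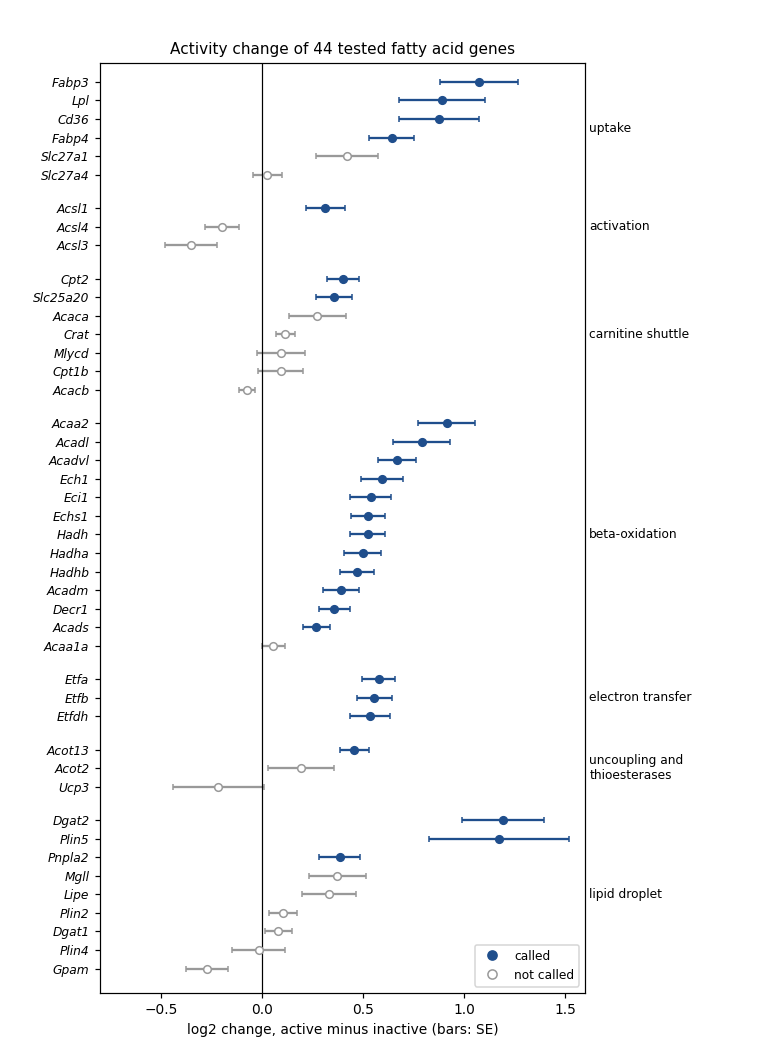
Log2 change of active minus inactive mice (points; bars are 1 SE) for the 44 tested fatty acid genes, grouped by step, with called genes filled. All 13 beta-oxidation and all 3 electron transfer estimates are positive, with 12 and 3 called, while activation, carnitine shuttle and lipid droplet genes spread across 0.

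Within each genotype the same comparison drew on 3 mice against 3. In myostatin-reduced mice (AM against IM) 24 of the 44 genes were called, all higher in AM mice. Over all genes tested 7.84% were called in that comparison and 5.31% were called higher. The 24 were the 26 genes called for activity without Acsl1 and Plin5, and the median over the 44 was 0.52. With the mouse number as a block 24 were called again, 23 of them the same, as Lpl was lost and Gpam was called lower in AM mice (8.67% of all genes tested). With the block and the IM and AM mice alone, a setting chosen after seeing the data, 30 were called, all 24 among them and 28 higher, and 14.9% of all genes were. In wild-type mice (AW against IW) 0 of 44 genes were called by limma, where 0.0276% of all genes tested, 2 genes, were called. At an unadjusted p-value under 0.05 there were 21 of 44, and 14.7% of all genes tested. The smallest adjusted p-value was 0.102, for Etfa. The median over the 44 was 0.25, with 37 positive. Acadl had a change of 1.17 (SE 0.198, adjusted p = 0.00864) in myostatin-reduced and of 0.42 (SE 0.198, adjusted p = 0.353) in wild-type mice, and Dgat2 of 1.59 (SE 0.286, adjusted p = 0.00874) and 0.80 (SE 0.286, adjusted p = 0.212). A test of the difference itself did not separate the genotypes.

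The interaction, the activity change of myostatin-reduced mice minus that of wild-type mice, was called in 0 of 44 genes and in 0% of all genes tested by limma. The estimate was positive in 39 of the 44, with a median of 0.22, and 2 genes (4.55%) passed an unadjusted p-value under 0.05, a share near the 4.10% of all genes tested. The 2 were Acadl at 0.75 (SE 0.28, adjusted p = 0.89) and Acacb at 0.18 (SE 0.0785, adjusted p = 0.89). Among the 44 no adjusted p-value was under 0.89. The interaction estimate was also positive in 8 of 8 endothelial markers (median 0.43) and 11 of 11 slow-fibre markers (median 1.07), none of them called, and with the endothelial score in the model (described further on) it was positive in 24 of the 44, with a median of 0.0095. For Fabp3 the 95% interval of the interaction was -0.17 to 1.50 and for Etfa -0.17 to 0.54, so differences between genotypes of those sizes could neither be called nor be set aside with 3 mice a group.

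**Figure D4:**
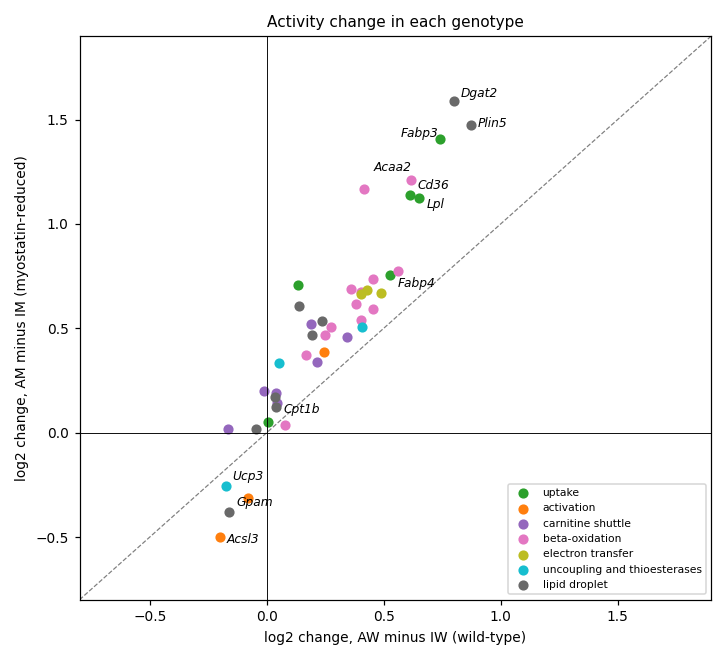
Log2 change with activity in wild-type mice (AW minus IW, horizontal axis) and in myostatin-reduced mice (AM minus IM, vertical axis) of the 44 tested fatty acid genes, coloured by step, with the line of equal change dashed. Most genes lie above the line, 39 of 44, and no gene's distance from it was called.

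Between myostatin-reduced and wild-type mice 1 gene of 44 was called, while 5.78% of all genes tested were called. Acacb, the mitochondrial-surface acetyl-CoA carboxylase (chromosome 5, 114596544 to 114700770), was at 471, 485 and 498 (IW), 420.0, 439.7 and 437 (AW), 508, 496 and 527 (IM) and 509, 519 and 522 (AM). The AW mice were the lowest 3 and did not overlap the AM mice, while IM mouse 2 lay just below IW mouse 3. Its genotype change was 0.17 (SE 0.0393, adjusted p = 0.03), higher in myostatin-reduced mice, and the call was lost in 7 of the 12 fits with 1 mouse left out. The estimate was negative in 37 of the 44 genes, with a median of -0.13, against -0.0049 over all genes tested. Slow-fibre markers were lower in 11 of 11 estimates (median -1.30, none called). Mb was called lower (given above) and the fast-fibre Actn3 higher (0.47, SE 0.12, adjusted p = 0.0392) in myostatin-reduced mice, and a fit that held the slow-fibre score gave the 44 a median of -0.02, with 17 positive. Without that score the lowest estimate was that of Acadl at -0.51 (SE 0.14, adjusted p = 0.0534). The highest was that of Acsl3 at 0.44 (SE 0.128, adjusted p = 0.0646). Both genes lie on chromosome 1. Whether DNA linked to the floxed Mstn gene plays a part in these estimates was not tested.

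By activity level, IM mice had lower estimates than IW mice in 36 of 44 genes, with a median of -0.22, and 13 had an unadjusted p-value under 0.05, as did 17.4% of all genes tested. Estimates of slow-fibre markers were negative in 11 of 11 (median -2.00) and those of endothelial markers in 8 of 8 (median -0.27), none of them called. Mb (-2.04, SE 0.389, adjusted p = 0.0227) and the intermediate myosin Myh1 (-1.44, SE 0.322, adjusted p = 0.0399) were called lower in IM mice. The median of the 44 was -0.10 with the slow-fibre and -0.08 with the endothelial score in the model. The gene called was Acadl, which fell by 0.88 on the log2 scale (SE 0.198, adjusted p = 0.0407), and 2.51% of all genes tested were called. The Acadl call was lost in 7 of the 12 fits with 1 mouse left out, and with the mouse number as a block, among other settings. A part of DNA linked to the floxed Mstn gene in this Acadl difference was not tested. In active mice 0 of 44 genes were called between AM and AW by limma, 2 had an unadjusted p-value under 0.05 (Acacb and Dgat1) where 12.3% of all genes tested did, and 0.207% of all genes tested were called. The median difference was -0.04. Both comparisons share no mice, but each shares its mice with the activity comparison within a genotype.

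Single libraries carried these counts unevenly. In AW mouse 1, 8 of the 44 genes were above all 3 IW mice, and 27.4% of all genes tested were. In AW mouse 2 there were 33 of 44 (26.7% of all genes), and in AW mouse 3 there were 31 (26.5%). AM mice 1, 2 and 3 had 30, 37 and 36 of 44 genes above all IM mice, while 27.2% to 35.3% of all genes were. Among inactive mice, IW mouse 1 had 7 of 44 genes below all AW mice, IW mice 2 and 3 had 34 and 26, and the IM mice had 33 to 35 below all AM mice. Among all genes these shares were 25.7% to 28.9% in the 6 inactive mice. IW mouse 1 and AW mouse 1 were thus the libraries that stood across the split. Left out in turn, AW mouse 1 raised the count of genes called between AW and IW from 0 to 9 (2.73% of all genes), and without IW mouse 1 it was 0. The count called for activity was 22 to 31 of 44 over the 12 fits with 1 mouse left out, and the share of all genes called was 7.62% to 20.5%. Between AM and IM it was 5 to 30, with 5 called without AM mouse 2, 7 without IM mouse 3, 11 without IM mouse 2 and 14 without IM mouse 1. The share of all genes called fell as well, to 1.17%, 1.63%, 1.96% and 3.02% in those 4 fits.

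Among markers of other cells, the endothelial ones moved with the same contrast. Of 6 fibroblast markers tested 0 were called by limma, 5 had negative activity estimates, and the median was -0.23. Of 2 macrophage and leukocyte markers tested 0 were called, with a median of -0.02. Among all genes tested 14.5% were called. Of 8 tested endothelial markers 7 were called higher in active mice, with a median change of 0.49. One of the 7, Emcn, had an inactive mean of 9.38 and so entered the test only through the active mice. The summed value of all 9 endothelial markers listed was 317 to 408 in IW mice, 319 to 543 in AW mice, 278 to 296 in IM mice and 372 to 612 in AM mice. Endothelial cells are known to express Cd36 and Fabp4. With an endothelial score of each library (the mean log2 deviation of the markers) in the model, a setting chosen after seeing the data, 0 of the 44 genes were called for activity by limma. In that fit 6 of all 7247 genes were called, 18 of the 44 had an unadjusted p-value under 0.05, and the median change of the 44 was 0.21 with 31 positive. The estimates of 9 genes that were not called without the score changed sign (Slc27a4, Acsl4, Cpt1b, Mlycd, Acaa1a, Acot2, Plin2, Lipe and Mgll). The score is itself higher in active mice, so what it shares with activity cannot be told apart.

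**Figure D5:**
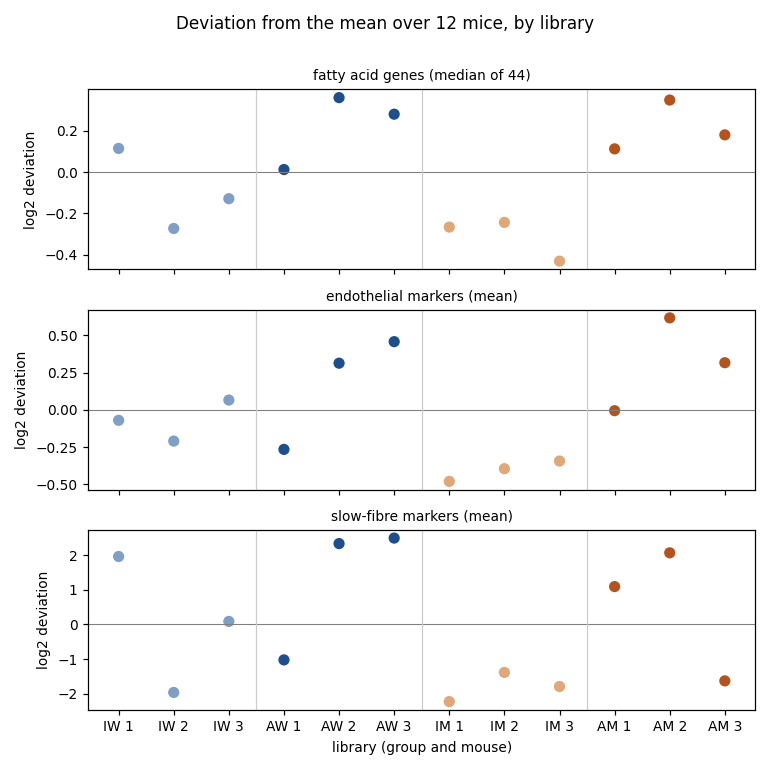
Deviation from the mean over 12 mice on the log2 scale (vertical axes) in each library for the median of the 44 fatty acid genes, the mean of the endothelial markers and the mean of the slow-fibre markers. IW 1 and AW 1 lie across the split between active and inactive mice in the slow-fibre panel, and AM 3 is above the mean in fatty acid genes and below it in slow-fibre markers.

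Slow-fibre markers varied widely within groups. Of 11 tested, 1 (Casq2) was called for activity, with a median change of 1.80. IW mouse 1, whose fatty acid genes were high for an inactive mouse, had a summed slow-fibre value of 1370, and AW mouse 1, whose fatty acid genes were low for an active mouse, had 151. AM mouse 3 had a sum of 117, near the highest IM mouse (112), with 36 of 44 fatty acid genes above all IM mice. AM mouse 3 was above all IM mice in Mb at 1970 (284 to 565 in IM mice), Myh1 at 9430 (1727 to 2929) and Myh2 at 1015 (89.9 to 557). Its endothelial score of 0.32 was above theirs as well (-0.48 to -0.34). Of the 11 slow-fibre markers, Casq2 at 31.3 (9.25 to 12.1) and Tpm3 at 9.13 (4.64 to 7.07) were above all IM mice. The other slow-fibre markers of AM mouse 3 were within the IM range. The part of fibre type and of other cells in the fatty acid values of this mouse was not tested. With a slow-fibre score, built in the same way, in the model 18 of the 44 genes were called for activity, all 18 among the 26, and 5.53% of all genes tested were called. The median change was then 0.26. The genes no longer called were Lpl, Acsl1, Slc25a20, Acadm, Acads, Decr1, Plin5 and Pnpla2. Between AM and IM the count became 12, and the share of all genes 2.58%. The activity estimates of Slc27a4, Cpt1b, Mlycd and Acot2, none of them called, turned negative in that fit. Of 10 fast-fibre markers tested, 8 had negative activity estimates, with a median of -0.13. Called lower were the fastest myosin Myh4 (-0.57), Actn3 (-0.49) and Atp2a1 (-0.30), with limma adjusted p = 0.0127, 0.0186 and 0.0384. The intermediate myosins Myh1 and Myh2 were the 2 called higher, by 1.51 and 2.04 (limma adjusted p = 0.0019 and 0.0251).

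Adipocyte markers overlapped between all groups. Their summed value over the 6 found was 34.9 to 103 in IW mice, 58.9 to 88.2 in AW mice, 54.6 to 68.5 in IM mice and 50.8 to 83.4 in AM mice. Adiponectin (Adipoq) was at 3.19 to 12.6, and its highest value was in IW mouse 2, an inactive mouse. Of 2 adipocyte markers tested 0 were called by limma, and 0 had an unadjusted p-value under 0.05. With the adipocyte score in the model 25 of the 44 fatty acid genes were called for activity, and 12.6% of all genes tested.

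Other genes of the same pathways, 51 tested from a list of isoenzymes and partners, gave 14 calls for activity (27.5%, against 14.5% of all genes tested), 13 higher and 1 lower, with a median change of 0.11. One of the 13, the thioesterase Acot11, had an inactive mean of 9.67, under the filter, and an active mean of 15.2, so it entered the test only through the active mice and its call is not used, which leaves 12 higher. Called higher at the uptake step were Dbi, the acyl-CoA binding protein (0.20, SE 0.0521, adjusted p = 0.0236), Cav1, the coat protein of caveolae (0.38, SE 0.115, adjusted p = 0.043), and Got2, a mitochondrial aminotransferase also known as a fatty acid binder at the membrane (0.48, SE 0.0873, adjusted p = 0.00435). Acss2, which activates acetate, changed by 0.58 (SE 0.128, adjusted p = 0.0118), and Acat1, the mitochondrial acetoacetyl-CoA thiolase, by 0.41 (SE 0.0732, adjusted p = 0.00429). In beta-oxidation 5 of 15 were called, namely Acad11, Hsd17b10, Hsd17b4, Eci2 and Mcee, with changes of 0.23 to 0.33. The thioesterase Them4 (0.29, SE 0.0837, adjusted p = 0.0377) and the coat protein Plin3 (0.49, SE 0.107, adjusted p = 0.0113) were also higher. The gene that was lower was Srebf1, a transcription factor of lipid synthesis (-0.49, SE 0.0769, adjusted p = 0.00235), with 79.9, 113 and 96.8 (IW), 74.1, 64.4 and 63.2 (AW), 91.0, 86.7 and 95.0 (IM) and 69.5, 64.5 and 62.6 (AM). All active mice were below all inactive mice in Srebf1.

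Between genotypes 6 of the 51 were called (11.8%, against 5.78% of all genes tested), 5 of them besides Slc27a3. Slc27a3, a fatty acid transport protein relative, had a mean of 10.1 and so entered the test only through the myostatin-reduced mice, in which it was high, and its call is not used here. It was at 3.41, 5.90 and 6.05 (IW), 13.1, 6.02 and 4.05 (AW), 13.6, 12.0 and 14.9 (IM) and 16.4, 12.9 and 13.1 (AM). AW mouse 1 lay within the myostatin-reduced range. Lpin1, the phosphatidate phosphatase lipin, was higher in myostatin-reduced mice (0.24, SE 0.0431, adjusted p = 0.009). Lower in myostatin-reduced mice were Dbi (-0.20, SE 0.0521, adjusted p = 0.0412), Pcca, a subunit of propionyl-CoA carboxylase (-0.35, SE 0.0458, adjusted p = 0.0014), the thioesterase Acot7 (-0.44, SE 0.0875, adjusted p = 0.0145) and the acyltransferase Agpat6 (-0.25, SE 0.0414, adjusted p = 0.00671).

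Levels per kilobase of transcript were averaged over the 12 mice and compared gene by gene. After Lpl the highest were Acadvl (195 normalized reads per kilobase), Fabp4 (187), Etfb (185), Etfa (159) and Ech1 (156). The lowest were Acaca (1.16), Ucp2 (1.64), Cpt1a (1.83), Acsl5 (2.04) and Slc27a4 (3.23). The 2 largest activity changes, those of Dgat2 and Plin5, were in genes of modest level, 20.7 and 8.18 normalized reads per kilobase. Transcript lengths were those of the annotated coding transcript with the longest coding part, so a level rests on the assumption that this transcript is the one expressed.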

How the data were processed

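Polyadenylated RNA of each mouse was read by the authors as single-end reads of 65 bases (Illumina GA IIx). The authors mapped them with CASAVA (version not given in the sources used here) to mouse build mm9, and summed reads in RefSeq exons to genes. The deposited signal is a read count per gene that the authors normalized to an equal trimmed mean in each sample, leaving out 5 percent of genes at either end, with 13 mitochondrial genes handled apart. In every gene the highest group mean was at least 3.

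Low values lie on a grid whose spacing is worth 1 read, and depth was taken from that spacing, 0.077 to 0.105. Whole multiples of it, within 0.0574 to 0.0749 of a read (the rounding of the table plus 0.01), made up 89.0% to 91.2% of values under 5 but 68.3% to 70.2% of values between 20 and 50. Whole reads were therefore not recovered, and no count model was run. Group differences were tested by limma 3.58.1 (R 4.3.3) on log2(value + 1), a scale that understates changes of low genes, and only genes with a mean of at least 10 entered. A mean per group was fitted to all 12 samples with eBayes and a trend. Two-sided p-values were adjusted over all 7247 tested genes by the Benjamini-Hochberg method, and a gene was called under 0.05. The script was tested on simulated data. Groups were taken from the sample titles, and the labels name no batch. Each sample is a separate mouse. Positions and transcript lengths came from the NCBIM37 (mm9) annotation for all 47 genes, and promoters from RefSeq (GRCm38.p6). Genes called for activity, genotype or interaction, and the entry genes of each step, were described in every sample.

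The members of the gene group and the other lists were chosen with earlier results of these data known. Alternatives were other pseudocounts, filters and scalings, sample weights, no trend, a replicate block, slow-fibre, adipocyte and endothelial scores as covariates, fits on the groups compared only, and each mouse left out. The endothelial score and a blocked fit of IM and AM mice alone were added after the data were seen. Replicate numbers recur in all groups and name different mice. Deviations of same-numbered mice from their group means correlated above 0.1 in all 3 pairs of IM and AM mice (0.171 to 0.322), a hint of pairing from the data, and in no other 2 groups in all 3 pairs. The study's own tests of transcript isoforms start from the reads and were not used here. Python 3.11.15, numpy 2.4.6, pandas 2.3.3 and matplotlib 3.10.9 were also used.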

Additional observations from a re-analysis of the deposited data

How the results depend on the processing

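Counts of called genes are of 44 tested. No gene called for activity or genotype changed sign in a setting run. Among genes not called, the activity estimate of 10 did. It turned negative with the endothelial score in Mlycd (0.09 to -0.25), Acot2 (0.19 to -0.24), Cpt1b (0.09 to -0.18), Mgll (0.37 to -0.09), Lipe (0.33 to -0.08), Acaa1a, Slc27a4 and Plin2, and positive in Acsl4, and 4 of these (Mlycd, Acot2, Cpt1b and Slc27a4) were also negative with the slow-fibre score. Slc27a4 was negative without AM mouse 2, and Plin4 was positive in 2 other settings and in 5 fits without a mouse. The genotype estimate changed sign in 14 genes and the interaction in 21 (Mstn included), none of them called. Active against inactive mice gave 26 genes, 24 to 31 (10.7% to 30.6% of all genes) under the planned settings other than the slow-fibre score (18) and the fits without a mouse (22 to 31), and 0 with the added endothelial score. Between AM and IM the 24 called became 12 with the slow-fibre score and 0 with the endothelial score, and were 5 to 30 without a mouse. Between AW and IW the count of 0 became 16 with sample weights (5.73% of all genes) and was 0 to 9 without a mouse (9 without AW mouse 1, 2.73%). Between genotypes the count of 1 became 2 with a mean of at least 50, 3 with sample weights and 3 with the endothelial score (10.6%, 8.39% and 7.42% of all genes), and was 0 to 7 without a mouse, the 7 being found without AW mouse 1 (7.99%). Between IM and IW the count of 1 became 0 with quantile normalization, without a trend, with the replicate block, with the adipocyte score and with the endothelial score. It became 2 with these groups alone, and was 0 to 1 without a mouse. The interaction and AM against AW stayed at 0 in every setting run. Why these counts moved was not tested, except that scores and left-out mice change the model and the samples.

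With the replicate number as a block 25 genes were called for activity, 24 of them among the 26, and 24 between AM and IM, 23 of them among the 24. Gpam, called lower, was the gene gained in both, and the block changed the call of Acadl between IM and IW. With IM and AM mice alone and the block, a setting added after the data were seen, 30 were called. AW against IW stayed at 0 and the genotype count at 1. No label states a pairing by number. The blocked fits of IM and AM mice rest on a hint from these same data, and whether those mice were paired is not known. Some members had low values (Acsl5, Cpt1a and Ucp2, with means under 10) and were not tested, and the limits that depth and the number of mice set were not separated.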
